A study of Rattus norvegicus with 9 samples.

Results

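The solute carriers are a large superfamily of membrane proteins that move sugars, amino acids, metals, anions, nucleotides and metabolic intermediates across the plasma membrane and organelle membranes. Their expressed genes were described here in rat primary chondrocytes, the cells that make cartilage matrix. Members were selected on measured expression: a gene symbol of the solute carrier pattern (Slc, a family number, a letter and a member number) and a level of at least 1 FPKM in at least 3 of the 9 libraries. FPKM is the number of sequenced fragments scaled to transcript length and library total. Of 312 symbols of that pattern in the deposited table, 182 met the rule and 130 did not, and the table held 17588 genes in all. The 9 libraries form 3 groups of 3, all from wild-type chondrocytes: a control in normal culture without interleukin-1β (IL-1β, an inflammatory cytokine), a group in normal culture with IL-1β, and a group that was stimulated with IL-1β and then shared a transwell with dermal fibroblasts, called co-culture below. Fibroblasts sat above the membrane and chondrocytes beneath it, so that medium but not cell contact was shared. The labels name no strain, age, number of animals, or dose and time of IL-1β. Values are FPKM as mean ± SD with n = 3 libraries a group. Nothing in the labels says that libraries came from separate animals or cultures, so p-values reflect only how far these libraries differ from each other, a spread that may be technical.

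Cartilage has no blood vessels, and its cells live at low oxygen and make most of their energy by glycolysis. They take up glucose through facilitative carriers of family 2 and export the resulting lactate through monocarboxylate carriers of family 16. Matrix synthesis also needs amino acids, sulfate, zinc and manganese, and nucleotide sugars in the Golgi, while the family 25 carriers exchange substrates across the inner mitochondrial membrane. By gene family, the 182 members comprised 33 mitochondrial Slc25 carriers, 31 amino acid and peptide carriers, 26 metal and heme carriers, 22 carriers of nucleotide sugars and acetyl-CoA, and 15 carriers of inorganic anions or chloride cotransport. A further 13 carried vitamins, choline, fatty acids or bile acids, 11 glucose and other sugars, 8 organic ions, 7 monocarboxylates, 7 were sodium, proton or calcium exchangers, and 5 carried nucleosides. The other 4 (Slc9a3r1, Slc9a3r2, Slc7a6os and Slc4a1ap) share the name pattern but are not transporters.

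RefSeq's promoter table (build GRCr8) held an entry for 137 of the 182 members. The 250 bases upstream of the annotated start are shown, 5′ to 3′ on the gene's strand, for 4 carriers picked from that table. Each rose at least 2-fold with IL-1β, and they are not all the members that did. They are the glucose carrier Slc2a1 (chr5:138002272-138002521, plus strand), the lactate carrier Slc16a1 (chr2:194812410-194812659, plus), the neutral amino acid carrier Slc43a2 (chr10:60874588-60874837, plus) and the iron carrier Slc11a2 (chr7:133417789-133418038, minus). Capitals mark matches on either strand to the hypoxia-response core ACGTG, the AP-1 motif TGANTCA or the NF-κB consensus.
Slc2a1: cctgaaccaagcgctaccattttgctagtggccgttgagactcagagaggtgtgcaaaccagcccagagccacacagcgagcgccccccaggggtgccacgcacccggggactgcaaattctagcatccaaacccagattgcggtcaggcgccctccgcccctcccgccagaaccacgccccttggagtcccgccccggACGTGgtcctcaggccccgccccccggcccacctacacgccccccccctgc
Slc16a1: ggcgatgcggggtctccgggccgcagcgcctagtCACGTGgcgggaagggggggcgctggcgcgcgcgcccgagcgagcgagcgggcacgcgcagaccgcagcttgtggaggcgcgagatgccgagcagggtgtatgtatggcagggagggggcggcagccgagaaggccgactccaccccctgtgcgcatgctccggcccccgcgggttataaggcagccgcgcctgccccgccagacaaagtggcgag
Slc43a2: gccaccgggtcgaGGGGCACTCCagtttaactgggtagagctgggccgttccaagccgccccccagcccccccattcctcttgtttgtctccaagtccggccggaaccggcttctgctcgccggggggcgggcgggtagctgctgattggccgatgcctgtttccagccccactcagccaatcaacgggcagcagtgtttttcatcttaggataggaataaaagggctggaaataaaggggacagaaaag
Slc11a2: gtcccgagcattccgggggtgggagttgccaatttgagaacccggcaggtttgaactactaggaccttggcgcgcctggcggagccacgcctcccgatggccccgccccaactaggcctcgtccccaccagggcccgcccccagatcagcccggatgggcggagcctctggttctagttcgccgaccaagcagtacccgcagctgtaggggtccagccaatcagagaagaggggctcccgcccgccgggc
Slc2a1 held 1 match to the hypoxia core. Slc16a1 held 1 stretch that reads as that core on both strands. Slc43a2 held 1 match to the NF-κB consensus, and Slc11a2 held no match to any of the 3. The hypoxia core lay in 16.9% of all 27457 promoter windows of this length and in 34 of the 137 members' windows. For the NF-κB consensus these were 6.41% and 14, and for AP-1 6.36% and 5. A match is a description of letters and does not show binding.

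FPKM summed to 771058 to 782435 in control, 796262 to 832248 in IL-1β and 809839 to 811665 in co-culture libraries. Depth in reads is unknown because no counts were used. The chondrocyte markers in the table, 11 of 12 listed, summed to 1932 to 2015 FPKM in control, 450.1 to 469 with IL-1β and 629.9 to 687 in co-culture, and all 11 reached 1 FPKM. The muscle markers in the table (7 of 8 listed, all reaching 1 FPKM) summed to 172 to 185, 389 to 414 and 382 to 424 FPKM in the same order. The 8 dermal fibroblast markers summed to 75.6 to 80.9, 69.0 to 72.2 and 65.4 to 71.3 FPKM, with 5 reaching 1 FPKM. Twist2 (22.8 to 24.6, 39.6 to 42.1 and 35.7 to 39.1) and Mfap5 (45.4 to 51.3, 24.1 to 26.0 and 24.3 to 27.5) made up most of that sum and went opposite ways with IL-1β. Dpp4 did not exceed 0.11 FPKM in any library, and Pi16, Entpd1 and Clec3b stayed at or below 1.05. The 5 adipocyte markers summed to 14.6 to 21.4, 158 to 186 and 33.9 to 49.99 FPKM, and Fabp4 was the 1 of them that reached 1 FPKM. Plin1 (0.61 to 0.72, 0 to 0.23 and 0.12 to 0.19) and Adipoq (0.28 to 0.66, 0.05 to 0.22 and 0.06 to 0.11) were highest in control. Cidec and Lep did not exceed 0.1 FPKM in any library. None of the 6 endothelial markers or of the 3 erythroid markers in the table reached 1 FPKM. The part of other cell types in the results below was not tested, and in bulk RNA fewer cells of a type and less RNA per cell cannot be told apart.

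The solute carriers as a whole moved little, and a small number of carriers moved strongly. The 182 members summed to 4758 ± 32.3 FPKM in control, 5299.9 ± 29.1 with IL-1β and 5072 ± 13.6 in co-culture. That was 0.607% to 0.622%, 0.641% to 0.665% and 0.623% to 0.627% of all FPKM. In a limma fit to log2(FPKM + 1) over all 11732 genes that passed the same filter, a gene was called at a Benjamini-Hochberg adjusted p under 0.05. With IL-1β 57 members were called higher and 38 lower than control, against 26.5% and 20.2% of all tested genes. The members' median log2 change was 0.02, as was that of all tested genes. The split was 42 higher and 50 lower when each library was brought to the same FPKM sum, 42 and 52 under quantile normalization, and 49 and 44 under median-of-ratios scaling. In the same order, the median log2 change was -0.035, -0.039 and -0.0002 over all tested genes. Over the members it was -0.033, -0.041 and 0.002. At a change of at least 1 in size on the log2(FPKM + 1) scale, 12 members rose (background 2.9%) and 3 fell (background 1.34%). Some low members whose mean FPKM changed by more than 2-fold did not reach that cut. Of the 12, Slc15a3 passed the filter only through the IL-1β libraries, and 11 remained without it. The shares of all tested genes given here are also the background for the counts of each class and list below. They hold for the fit without rescaling, and shares under the rescalings and other alternatives are not given.

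When co-culture was set against IL-1β alone, 18 members were called higher and 32 lower, against 11.9% and 10.1% of all tested genes. The median log2 change was -0.01 over the members and 0.02 over all tested genes. The count of higher calls fell to 11 without IL-1β replicate 3, without co-culture replicate 2, or with only the 6 libraries compared in the fit. At a log2 change of at least 1 in size, 4 members fell (background 0.776%) and 0 rose (background 0.0341%). These 4 were Slc7a2, Slc1a1, Slc48a1 and Slc9a3r1. When co-culture was set against control, 46 members were called higher and 26 lower, against 21.8% and 12.2% of all tested genes. The same rescalings, in the same order, gave 31 and 35, 34 and 37, and 35 and 34. The median log2 change over all tested genes was 0.043 without rescaling and -0.015, -0.012 and 0.003 with them. Over the members it was 0.033, then -0.021, -0.028 and -0.004. The comparisons share libraries, so their values for a member are given side by side and no relation between them was tested.

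**Figure D1:**
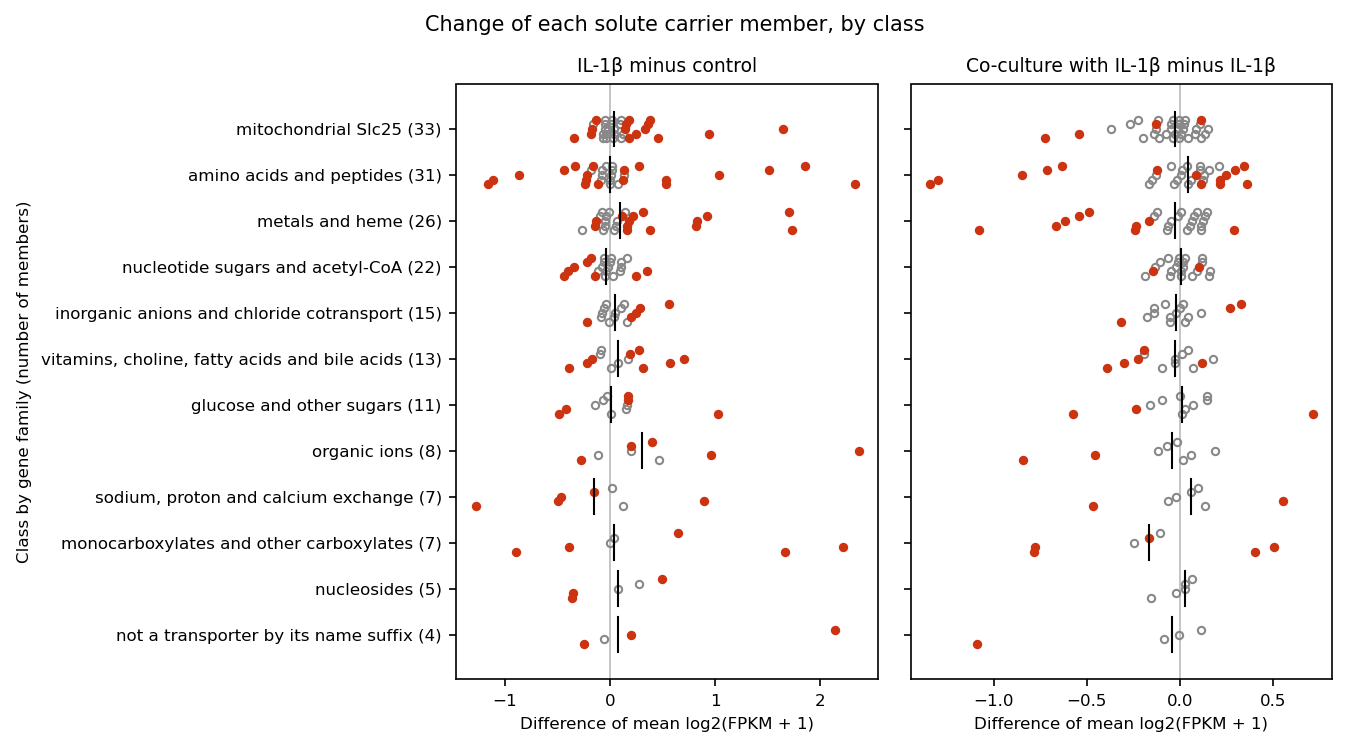
Difference of group means of log2(FPKM + 1) for each of the 182 members (points), by class, with IL-1β minus control on the left and co-culture with IL-1β minus IL-1β on the right. Filled red points passed an adjusted p of 0.05 in limma, open grey points did not, and black bars are class medians. Most class medians lie near 0, while single members reach beyond 2 on the left and below -1 on the right. The medians furthest from 0 are 0.30 for organic ions and -0.15 for exchangers on the left, and -0.16 for monocarboxylates on the right.

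Among glucose and sugar carriers, the basal glucose transporter Slc2a1 stood far above the other members of family 2. It read 66.2, 69.7 and 68.7 FPKM in the control libraries, 142, 138 and 141 with IL-1β, and 96.0, 95.5 and 91.2 in co-culture. No library of a group overlapped another group. Slc2a1 rose 2.06-fold with IL-1β (log2 change 1.03 ± 0.03 SE, adjusted p = 2.42e-09). In co-culture it was 1.49-fold lower than with IL-1β alone (-0.57 ± 0.03, adjusted p = 1.76e-06) and 1.38-fold above control (adjusted p = 2.32e-06). The high-affinity glucose transporter Slc2a3 had another pattern, at 3.40, 2.93 and 3.02 FPKM in control, 3.35, 4.03 and 1.97 with IL-1β and 5.17, 5.59 and 6.04 in co-culture. Its co-culture libraries lay above all others, 1.80-fold above IL-1β alone (0.71 ± 0.16, adjusted p = 0.0112), while control and IL-1β libraries overlapped (-0.03 ± 0.16).

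The other sugar carriers changed less. The inositol carrier Slc2a13 fell from 3.07 ± 0.135 to 1.91 ± 0.116 FPKM with IL-1β (adjusted p = 0.000469), and Slc2a10, whose human counterpart is mutated in arterial tortuosity syndrome, from 2.89 ± 0.280 to 1.90 ± 0.0917 (adjusted p = 0.00155). In co-culture they read 2.22 ± 0.246 and 2.21 ± 0.215, and neither passed against IL-1β. The endoplasmic reticulum glucose-6-phosphate carrier Slc37a4 (11.9 ± 0.143 to 13.5 ± 0.652) and the intracellular carrier Slc2a8 (5.63 ± 0.0723 to 6.49 ± 0.321) were called higher with IL-1β by small margins. Both calls ended under all 3 rescalings. That of Slc37a4 also ended without control replicate 2 or 3 or IL-1β replicate 2 or 3 (log2 change 0.15 to 0.17), and that of Slc2a8 without any of the 3 control libraries or IL-1β replicate 1 or 2 (0.14 to 0.18). The class thus had 3 of 11 members higher and 2 lower, against 26.5% and 20.2% of all tested genes, but 1 higher and 3 or 4 lower under the 3 rescalings. In co-culture Slc2a9, a urate carrier, was called lower than with IL-1β, at 1.24 ± 0.0557 against 1.64 ± 0.00577. That call ended without any IL-1β library or co-culture replicate 2 or 3 (-0.24 to -0.22). The abundant members Slc37a3 (42.9 ± 0.555, 40.8 ± 1.17 and 41.0 ± 1.16) and Slc50a1 (24.5 ± 1.57, 24.6 ± 1.39 and 25.8 ± 1.52 in the order control, IL-1β, co-culture) passed in no comparison, though Slc37a3 was called lower with IL-1β under all 3 rescalings (-0.13 to -0.10). Among 9 tested genes of glucose entry and use that are not solute carriers, 6 were higher and 1 lower with IL-1β (26.5% and 20.2% of all tested genes), and 1 higher and 6 lower in co-culture than with IL-1β (11.9% and 10.1%). Hexokinase 2 (Hk2) read 18.8 ± 0.501, 31.7 ± 0.964 and 26.2 ± 0.666, and Txnip, a brake on glucose uptake, 83.3 ± 1.33, 43.9 ± 0.845 and 65.9 ± 1.84.

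Both main lactate carriers rose with IL-1β and were lower in co-culture than with IL-1β alone. Slc16a1 (MCT1) read 46.8, 49.3 and 51.0 FPKM in control, 161, 158 and 154 with IL-1β and 87.4, 88.4 and 99.1 in co-culture. Its groups did not overlap: it rose 3.21-fold with IL-1β (1.66 ± 0.05, adjusted p = 2.55e-09) and fell 1.72-fold in co-culture (-0.78 ± 0.05, adjusted p = 4.83e-06). Slc16a3 (MCT4), the lactate exporter of glycolytic cells, was the most abundant of the 7 family members, at 176 ± 1.23, 275 ± 2.82 and 246 ± 9.15. It rose 1.57-fold with IL-1β and was 1.12-fold lower in co-culture than with IL-1β (-0.16 ± 0.03, adjusted p = 0.00314). The high-affinity pyruvate and lactate carrier Slc16a7 (MCT2) went the other way, at 8.60, 9.30 and 8.75 in control, 4.37, 4.45 and 4.14 with IL-1β and 5.73, 6.93 and 7.04 in co-culture. It fell 2.06-fold with IL-1β (adjusted p = 4.41e-06) and rose 1.52-fold in co-culture (adjusted p = 0.000901). Slc16a14, a less studied relative, also fell with IL-1β (2.56 ± 0.315 to 1.73 ± 0.314), and its rise in co-culture to 2.60 ± 0.211 lost its call without IL-1β replicate 1 or 3 or co-culture replicate 2 (0.33 to 0.39). Of 8 other genes of lactate and pyruvate handling, 6 were higher with IL-1β and 1, Pdk4, lower, and Bsg, the chaperone that brings MCT1 and MCT4 to the membrane, read 548 ± 22.8, 662 ± 13.0 and 592 ± 18.3.

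**Figure D2:**
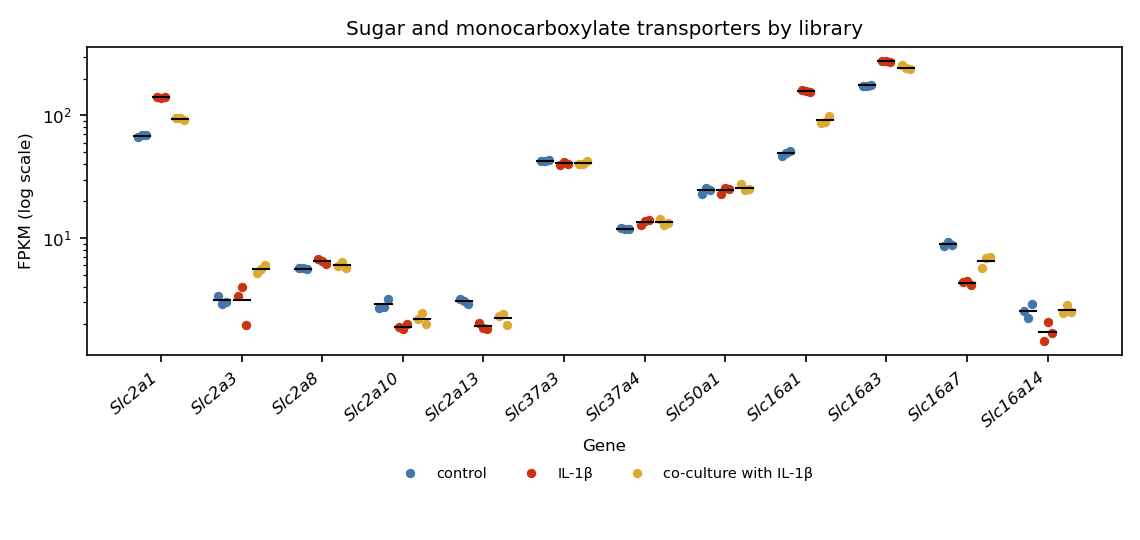
FPKM on a log scale in each library (points) for sugar and monocarboxylate carriers, in control (blue), IL-1β (red) and co-culture with IL-1β (yellow), with the group mean as a black bar. Slc2a1 and Slc16a1 are highest with IL-1β and intermediate in co-culture, Slc16a7 is lowest with IL-1β, and Slc2a3 is highest in co-culture.

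Amino acid carriers split, with 9 of 31 higher and 10 lower with IL-1β, and 8 higher and 6 lower in co-culture than with IL-1β. These shares compare with 26.5% higher and 20.2% lower of all tested genes with IL-1β, and 11.9% and 10.1% in co-culture. With only the 6 libraries compared the co-culture counts were 4 and 6, and with a replicate block 5 and 6. The IL-1β counts were 8 and 10, and the co-culture counts 8 and 5, without the 2 members that needed 1 group to pass the filter. Slc7a2, Slc1a1 and Slc43a2 had the largest rises on the log2(FPKM + 1) scale. The cationic amino acid carrier Slc7a2 (CAT2), which brings in arginine, read 8.41, 7.22 and 8.70 FPKM in control, 31.0, 32.6 and 32.5 with IL-1β and 11.3, 11.6 and 13.2 in co-culture. It rose 3.95-fold with IL-1β (1.86 ± 0.07, adjusted p = 1.69e-08) and fell 2.66-fold in co-culture (-1.34 ± 0.07, adjusted p = 1.71e-06), to a level still above every control library. Of 6 enzymes of arginine and ornithine metabolism outside the superfamily, 5 were higher and 1, Odc1, lower with IL-1β, and 3 were lower in co-culture. Those 3 were Nos2, Arg2 and the arginine-recycling enzyme gene Ass1, which read 1.46 ± 0.1, 29.6 ± 0.480 and 7.41 ± 0.491. The other cationic carriers behaved differently. Slc7a1 (CAT1) read 15.5 ± 0.0907, 14.7 ± 0.280 and 17.2 ± 1.24, with no call for IL-1β and a rise in co-culture over IL-1β (0.22 ± 0.05, adjusted p = 0.012). Slc7a3 (CAT3) read 4.78, 5.23 and 4.94 in control, 1.51, 1.85 and 1.67 with IL-1β and 2.22, 1.67 and 1.91 in co-culture, a 2.97-fold fall (adjusted p = 1.93e-06), with the IL-1β and co-culture libraries overlapping.

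The glutamate and cysteine carrier Slc1a1 (EAAT3) read 1.60, 2.43 and 2.09 FPKM in control, 13.6, 16.3 and 12.9 with IL-1β and 4.60, 5.45 and 5.48 in co-culture. The 3 groups were apart from each other, with a 6.99-fold rise (2.33 ± 0.12, adjusted p = 1.09e-07) and a 2.75-fold fall in co-culture (-1.30 ± 0.12, adjusted p = 4.3e-05). Its relative Slc1a3 (EAAT1) rose from 19.4 ± 0.990 to 28.4 ± 1.27 with IL-1β and read 29.2 ± 1.21 in co-culture. The branched-chain amino acid carrier Slc43a2 (LAT4) read 1.65 ± 0.112, 6.54 ± 0.304 and 3.19 ± 0.0379, a 3.97-fold rise and a 2.05-fold fall in co-culture (adjusted p = 1.89e-08 and 8.35e-06). The cystine and glutamate exchanger Slc7a11 (xCT), which supplies cysteine for glutathione, was low, at 1.79 ± 0.0569, 3.05 ± 0.170 and 1.60 ± 0.0603. It rose 1.71-fold with IL-1β (adjusted p = 7.59e-05) and fell 1.90-fold in co-culture (adjusted p = 9.71e-05), where its libraries all lay below the control libraries without passing against them (adjusted p = 0.273).

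The abundant exchangers of large neutral amino acids fell by small amounts. Slc3a2 (CD98 heavy chain), the partner subunit of several family 7 carriers, read 155 ± 2.65, 131 ± 2.34 and 143 ± 8.75 FPKM, and its light chain Slc7a5 (LAT1) 70.5 ± 1.01, 60.5 ± 1.66 and 70.3 ± 1.62. Both fell with IL-1β (adjusted p = 0.000807 and 0.000248), and Slc7a5 rose again in co-culture (0.21 ± 0.03, adjusted p = 0.00095). Of the sodium-coupled neutral carriers of family 38, Slc38a4 (SNAT4) read 32.6, 31.9 and 31.6 in control, 14.7, 14.3 and 13.8 with IL-1β and 19.3, 19.1 and 17.4 in co-culture. It fell 2.24-fold (-1.11 ± 0.04, adjusted p = 1.98e-08) and rose 1.30-fold in co-culture (adjusted p = 0.000356). Slc38a1 fell with IL-1β and rose in co-culture in the same way (15.6 ± 0.386, 11.3 ± 0.821 and 14.0 ± 0.530). Slc38a2 (SNAT2), the stress-regulated member, fell from 135 ± 1.91 to 124 ± 1.45 and read 132 ± 2.90 in co-culture. The co-culture call of Slc38a2 ended when any library but co-culture replicate 1 was left out (0.07 to 0.09). Slc6a15, a branched-chain and proline carrier, read 3.59 ± 0.264, 1.53 ± 0.252 and 2.21 ± 0.276. Its co-culture rise lost its call without IL-1β replicate 1 or 3 or co-culture replicate 1 or 2 (0.27 to 0.37). Slc1a5 (ASCT2), a glutamine carrier, rose with IL-1β from 36.0 ± 1.53 to 43.8 ± 0.435, and the taurine carrier Slc6a6 read 14.5 ± 0.710, 15.9 ± 0.235 and 15.5 ± 0.472. The IL-1β call of Slc6a6 (0.13) ended without control replicate 2 or 3 or any IL-1β library (0.09 to 0.14) and under all 3 rescalings. Among 12 enzymes and regulators of amino acid and glutathione metabolism, 4 were higher and 7 lower with IL-1β, and 7 higher and 2 lower in co-culture than with IL-1β. The glutathione-degrading enzyme Chac1 read 25.6 ± 2.13, 12.3 ± 0.950 and 16.7 ± 0.670, and asparagine synthetase (Asns) 101 ± 4.57, 85.2 ± 2.60 and 96.8 ± 4.64.

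**Figure D3:**
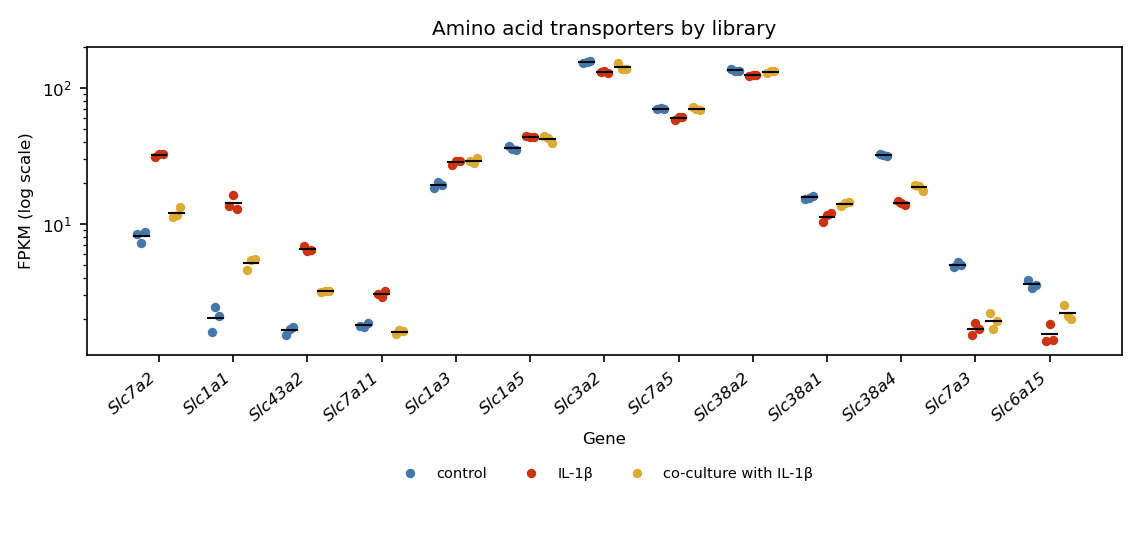
FPKM on a log scale in each library (points) for amino acid carriers, in control (blue), IL-1β (red) and co-culture with IL-1β (yellow), with the group mean as a black bar. Slc7a2, Slc1a1, Slc43a2 and Slc7a11 are highest with IL-1β, whereas Slc38a4, Slc7a3 and Slc6a15 are highest in control.

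Of 26 metal and heme carriers, 12 were higher and 2 lower with IL-1β, against 26.5% and 20.2% of all tested genes. Without the 2 members that needed 1 group to pass the filter the counts were 11 and 2. They were 10 and 4, 9 and 5, and 9 and 6 under median-of-ratios scaling, a common sum and quantile normalization. In co-culture against IL-1β, 8 were lower and 1 higher, against 10.1% and 11.9% of all tested genes. The changes were led by carriers of iron and zinc into the cytosol. Slc39a14 (ZIP14), which takes up zinc, iron and manganese, read 33.5, 32.5 and 32.7 FPKM in control, 108, 110.2 and 110.1 with IL-1β and 74.4, 72.2 and 77.5 in co-culture. It rose 3.32-fold (1.70 ± 0.03, adjusted p = 9.72e-11), fell 1.46-fold in co-culture (-0.54 ± 0.03, adjusted p = 2.78e-06) and stayed 2.27-fold above control (1.16 ± 0.03, adjusted p = 3.67e-09). The divalent metal carrier Slc11a2 (DMT1), which moves iron out of endosomes, read 19.7, 21.1 and 19.9 in control, 70.6, 70.5 and 68.2 with IL-1β and 42.8, 43.2 and 44.6 in co-culture. It rose 3.45-fold (adjusted p = 1.46e-10), fell 1.60-fold (adjusted p = 1.52e-06) and stayed 2.15-fold above control (adjusted p = 1.16e-08). Slc25a37 (mitoferrin-1), which carries iron into mitochondria, read 7.43, 7.50 and 8.10, then 26.6, 24.7 and 27.1, then 15.3, 15.8 and 15.1. In none of these 3 genes did any 2 groups overlap, and co-culture lay between the others.

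The heme carrier Slc48a1 (HRG1) differed in where the co-culture ended. It read 54.4, 56.3 and 53.6 FPKM in control, 101.7, 109 and 102.6 with IL-1β and 49.7, 46.7 and 50.4 in co-culture. It rose 1.91-fold with IL-1β (0.92 ± 0.04, adjusted p = 3.78e-08) and fell 2.13-fold in co-culture (-1.08 ± 0.04, adjusted p = 2.31e-07), to below every control library (-0.16 ± 0.04, adjusted p = 0.012). Slc39a8 (ZIP8), a zinc importer studied in osteoarthritis, was much lower than Slc39a14, at 2.23 ± 0.155, 4.73 ± 0.293 and 3.09 ± 0.0651, with a 2.12-fold rise and a 1.53-fold fall (adjusted p = 3.17e-06 and 0.000529). Slc39a6 (34.5 ± 1.28, 45.2 ± 1.75 and 38.2 ± 0.806) followed the same order in smaller steps. The most abundant zinc carriers moved by small amounts: Slc39a7 (ZIP7), which releases zinc from the endoplasmic reticulum, fell from 140.3 ± 1.04 to 127 ± 1.55, and Slc39a1 rose from 88.9 ± 1.96 to 99.9 ± 1.52. Slc39a13 (ZIP13), needed for connective tissue development, read 62.3 ± 1.44, 56.8 ± 0.238 and 59.0 ± 3.41, and its IL-1β call ended without control replicate 1 or 2 or IL-1β replicate 1 or 2 (-0.13 to -0.11). Slc39a10 was the 1 metal carrier that rose in co-culture over IL-1β, from 16.2 ± 0.629 to 20.0 ± 0.934 (0.29 ± 0.04, adjusted p = 0.00141).

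Neither named exporter, Slc30a1 or Slc40a1, passed with IL-1β in the fit of all 9 libraries without rescaling. The zinc exporter Slc30a1 read 5.43, 5.31 and 5.57 FPKM in control, 4.56, 4.47 and 4.02 with IL-1β and 4.05, 6.08 and 4.78 in co-culture. Its control and IL-1β libraries did not overlap. The IL-1β difference (-0.27 ± 0.11, adjusted p = 0.0641) passed without co-culture replicate 1 or 2 and under all 3 rescalings (adjusted p up to 0.0444). It also passed with only the 6 libraries compared in the fit (adjusted p = 0.00821). The copper importer Slc31a1 passed in no comparison (42.5 ± 2.19, 41.1 ± 1.51 and 40.9 ± 3.22). The iron exporter ferroportin (Slc40a1) was near the limit of the rule and unsteady within groups, at 0.44, 0.41 and 1.30 in control, 0, 0.78 and 1.37 with IL-1β and 0.75, 0.46 and 1.08 in co-culture. An exact 0 in this table can be a failed estimate. Of 17 tested genes of metal storage and handling, 9 were higher and 1, Aco1, lower with IL-1β, and 1 higher and 6 lower in co-culture. The ferritin heavy chain gene Fth1 read 1213 ± 32.4, 4839.8 ± 134 and 2236 ± 126, and the endosomal metalloreductase genes Steap1 57.7 ± 2.94, 172 ± 9.51 and 118 ± 3.65 and Steap2 34.6 ± 0.348, 109 ± 1.31 and 71.5 ± 2.94. The metallothionein gene Mt1 read 96.2 ± 2.32, 578 ± 24.6 and 296 ± 27.0, and near-identical copies make its reads uncertain. Other genes of this list had other patterns. Steap3 read 12.8 ± 0.521, 12.4 ± 0.459 and 13.4 ± 0.798 and passed in no comparison. Steap4 read 0.29 ± 0.0985, 3.53 ± 0.319 and 3.37 ± 0.139, with no call in co-culture against IL-1β. The transferrin receptor gene Tfrc read 74.0 ± 0.518, 86.8 ± 1.24 and 94.0 ± 4.89. The ferritin light chain gene Ftl1 read 3701 ± 30.8, 3867.5 ± 66.5 and 3185 ± 118.

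**Figure D4:**
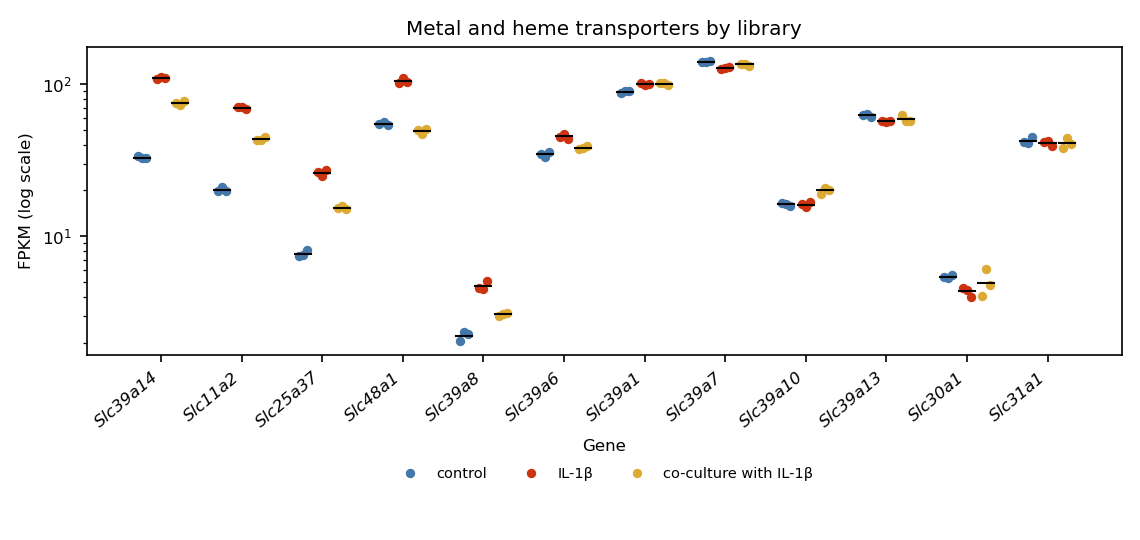
FPKM on a log scale in each library (points) for metal and heme carriers and mitoferrin-1, in control (blue), IL-1β (red) and co-culture with IL-1β (yellow), with the group mean as a black bar. Slc39a14, Slc11a2 and Slc25a37 are highest with IL-1β and intermediate in co-culture, whereas Slc48a1 is lowest in co-culture and Slc39a1, Slc39a7 and Slc31a1 lie close together in all groups.

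Among carriers of inorganic anions and chloride cotransporters, 4 of 15 were higher and 1 lower with IL-1β, against 26.5% and 20.2% of all tested genes, and 3 and 3 with a common sum, or 3 and 2 under the other rescalings. The phosphate importer Slc20a1 (PiT-1), a carrier linked to cartilage mineralization, was by far the most abundant. It read 115, 117 and 110 FPKM in control, 171, 167 and 167 with IL-1β and 135, 135 and 134 in co-culture. Its groups were apart, with a 1.48-fold rise (0.56 ± 0.03, adjusted p = 1.08e-07) and a 1.25-fold fall in co-culture (adjusted p = 3.69e-05). Its relative Slc20a2 (PiT-2) did not change with IL-1β by this test and rose in co-culture, at 10.7 ± 0.162, 10.4 ± 0.446 and 12.7 ± 0.295 (0.27 ± 0.04, adjusted p = 0.00165). The sodium, potassium and chloride cotransporter Slc12a2 (NKCC1) read 29.8, 29.1 and 28.3 in control, 24.04, 25.4 and 25.1 with IL-1β and 30.1, 32.3 and 31.8 in co-culture, a fall (adjusted p = 0.00116) and a rise (adjusted p = 0.000269). The bicarbonate carriers Slc4a7 (18.9 ± 0.649, 22.7 ± 0.193 and 22.4 ± 0.827) and Slc4a4 (4.42 ± 0.174, 5.64 ± 0.532 and 4.85 ± 0.0208) rose with IL-1β. The fourth higher call, Slc12a7 (0.20, adjusted p = 0.0471), ended without control replicate 1 or 3, any IL-1β library or co-culture replicate 1 (0.15 to 0.22), and under all 3 rescalings (0.12 to 0.18). The sulfate carrier Slc26a2, which feeds proteoglycan sulfation and whose loss causes chondrodysplasia, passed in no comparison, at 4.01, 3.68 and 3.91, then 3.70, 3.67 and 3.43, then 3.62, 3.89 and 4.42. Of 9 tested genes of phosphate, sulfate and bicarbonate handling, 3 were higher and 4 lower with IL-1β, with the pyrophosphate exporter Ankh at 40.2 ± 0.640, 19.1 ± 0.612 and 26.3 ± 1.52 and the sulfate-activating enzyme Papss1 at 67.6 ± 1.86, 47.4 ± 1.52 and 51.2 ± 2.91.

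Mitochondrial carriers held the 3 most abundant members, and these changed little. The class summed to 1820.2 ± 18.8 FPKM in control, 1849 ± 36.7 with IL-1β and 1914 ± 1.46 in co-culture. The phosphate carrier Slc25a3 read 497 ± 4.72, 476 ± 14.0 and 502 ± 16.0, the muscle-type ADP/ATP carrier Slc25a4 443 ± 7.17, 430.1 ± 15.3 and 464 ± 5.33, and its ubiquitous relative Slc25a5 364 ± 7.48, 371 ± 10.2 and 394 ± 6.66. None of the 3 passed with IL-1β, where Slc25a3 was called lower under all 3 rescalings (-0.13 to -0.09) and Slc25a4 under a common sum and quantile normalization (-0.11 to -0.09). The co-culture rise of Slc25a4 over IL-1β (0.11) lost its call without IL-1β replicate 2 or 3 or any co-culture library (0.09 to 0.12). With IL-1β 11 of 33 were higher and 4 lower, against 26.5% and 20.2% of all tested genes, or 9 and 4 without the 2 members that needed 1 group to pass the filter. The counts were 9 and 1 with no filter in the fit, 10 and 2 with only the 6 libraries compared, 9 and 2 with a replicate block, 10 and 5 under median-of-ratios scaling, 6 and 7 under quantile normalization and 6 and 6 with a common sum. Mitoferrin-1 (Slc25a37), given above, rose 3.40-fold (1.64 ± 0.05, adjusted p = 2.14e-09) and fell 1.70-fold in co-culture (-0.72 ± 0.05, adjusted p = 5.88e-06). Its paralog mitoferrin-2 (Slc25a28) passed in no comparison, at 16.0 ± 0.204, 16.1 ± 0.327 and 16.6 ± 0.341, and was named after its values were seen.

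The coenzyme A carrier Slc25a42 read 2.13, 2.01 and 2.58 FPKM in control, 5.87, 5.19 and 4.67 with IL-1β and 3.49, 2.92 and 3.44 in co-culture, a 2.34-fold rise and a 1.60-fold fall (adjusted p = 2.38e-05 and 0.00317). The citrate carrier Slc25a1, which exports citrate for lipid synthesis, rose from 28.2 ± 1.69 to 39.1 ± 2.26 and read 35.4 ± 0.630 in co-culture. The carnitine carrier Slc25a20 rose with IL-1β (36.4 ± 1.39 to 40.6 ± 0.950) and read 37.0 ± 0.542 in co-culture. Its rise with IL-1β ended with a common sum (0.09, adjusted p = 0.0511), and its co-culture fall ended without IL-1β replicate 1 or 3 or co-culture replicate 1 or 2 (-0.13 to -0.11). Of the 4 lower calls, the pyrimidine nucleotide carrier Slc25a33 fell from 9.86 ± 0.783 to 7.59 ± 0.536 (-0.34 ± 0.06, adjusted p = 0.00177). Those of Slc25a24, Slc25a15 and Slc25a38 were small (-0.18 to -0.14). Each of these ended when any of 4 to 7 single libraries was left out, among them control replicates 1 and 3 and IL-1β replicate 3 for all 3, with log2 changes of -0.19 to -0.11. Slc25a51, the mitochondrial NAD carrier, could not be read: it was listed at 0.65, 1.41 and 10.6 in control, 4.97, 1.12 and 1.62 with IL-1β and 14.3, 0 and 0 in co-culture. Of 11 other mitochondrial membrane carriers and channels, 3 were higher and 3 lower with IL-1β. Ucp2 rose from 30.8 ± 1.18 to 42.6 ± 1.70 and the calcium uniporter Mcu fell from 45.4 ± 2.77 to 32.1 ± 1.47.

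Of the calcium exchangers, Slc8a1 fell and Slc8b1 rose with IL-1β. The sodium and calcium exchanger Slc8a1 (NCX1) read 12.3, 12.1 and 12.3 FPKM in control, 4.59, 4 and 4.77 with IL-1β and 6.54, 7.71 and 6.77 in co-culture, a 2.74-fold fall (-1.28 ± 0.07, adjusted p = 2.34e-07) and a 1.57-fold rise in co-culture (adjusted p = 0.000417). The mitochondrial exchanger Slc8b1 (NCLX) read 3.40, 3.62 and 3.61, then 7.59, 7.70 and 7.12, then 4.99, 4.86 and 5.51, a 2.11-fold rise and a 1.46-fold fall (adjusted p = 9.03e-07 and 0.000391). It was the 1 higher call among the 7 exchangers, of which 4 were lower, or 3 of 6 without Slc9a9, which passed the filter only through the control group. The scaffold protein gene Slc9a3r1 (NHERF1), which tethers carriers to the cytoskeleton, read 3.67, 4.12 and 3.79, then 20.8, 21.6 and 19.1, then 9, 7.08 and 11.7, a 5.31-fold rise and a 2.21-fold fall (adjusted p = 6.38e-07 and 0.000354).

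Families 35 and 33, which hold the Golgi and endoplasmic reticulum carriers of nucleotide sugars for glycosaminoglycan synthesis together with carriers of ATP or acetyl-CoA and orphans, had 6 of 22 members called lower and 2 higher with IL-1β. Of all tested genes 20.2% were lower and 26.5% higher. The counts were 8 and 2 with a common sum or quantile normalization. Slc35d1, a carrier of UDP-glucuronic acid and UDP-N-acetylgalactosamine needed for chondroitin sulfate, read 8.84, 8.21 and 8.79 FPKM in control, 5.76, 6.28 and 6.20 with IL-1β and 6.46, 7.11 and 7.21 in co-culture. It fell 1.42-fold with IL-1β (-0.44 ± 0.06, adjusted p = 0.000134), and its difference between co-culture and IL-1β (0.16 ± 0.06, adjusted p = 0.0695) passed without co-culture replicate 1 (0.21) and after quantile normalization (0.19). The higher calls were Slc35e1 (35.4 ± 1.29 to 42.2 ± 1.17) and the acetyl-CoA carrier Slc33a1 (19.0 ± 0.630 to 24.5 ± 1.24). The most abundant member, Slc35b1, which carries ATP into the endoplasmic reticulum, read 88.2 ± 2.64, 83.9 ± 3.97 and 91.0 ± 1.83. Its IL-1β difference (-0.07) was called lower without IL-1β replicate 1 (-0.11) and with a common sum or quantile normalization, and its co-culture difference from IL-1β (0.12) was called higher without IL-1β replicate 1 (0.15), under those 2 rescalings and among genes of mean FPKM of at least 5. Of the remaining classes, the nucleoside carrier Slc29a1 (ENT1) fell from 39.0 ± 1.14 to 30.1 ± 0.595 and read 30.7 ± 0.953 in co-culture (adjusted p = 1.92e-05 with IL-1β and 0.641 for co-culture against IL-1β). The choline carriers diverged: Slc44a1 rose from 20.5 ± 0.477 to 34.1 ± 0.893 and read 27.6 ± 1.02 in co-culture, and Slc44a2 fell from 19.1 ± 0.595 to 14.4 ± 0.346 and read 14.1 ± 0.453.

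Several members passed the rule only through some libraries, and their values are given without a test. Of the 182, 8 would not have reached 3 libraries if 1 of the groups were absent: Slc15a3, Slc11a1, Slc25a29 and Slc22a18 without IL-1β, Slc38a3 without co-culture, Slc9a9 without control, Slc25a35 without IL-1β or without co-culture, and Slc40a1 without any 1 group. Just inside the rule, at exactly 3 libraries, stood 5 members. The lysosomal histidine and peptide carrier Slc15a3 read 0.20, 0.12 and 0.08 FPKM in control, 1.46, 1.29 and 1.22 with IL-1β and 0.44, 0.45 and 0.36 in co-culture. The phagosomal metal carrier Slc11a1 (NRAMP1), best known from macrophages, read 0.46, 0.54 and 0.46, then 1.61, 1.94 and 1.37, then 0.82, 0.79 and 0.55. Summed macrophage and blood cell markers (9 genes) were 19.5 to 22.6, 24.5 to 26.7 and 21.1 to 23.5 FPKM in the same order. The pan-leukocyte gene Ptprc stayed at 0.05 to 0.10 and Csf1r at 0.13 to 0.42, while Cd14, which other cells also express, made up most of the sum. Cd68 read 1.89 to 2.12, 3.54 to 3.88 and 2.51 to 2.85 in the same order, highest with IL-1β as Slc11a1 was. Cd14 and Itgam were also highest with IL-1β. Laptm5 was lower with IL-1β than in control (1.22 to 1.36, 0.77 to 0.88 and 0.72 to 1.39). Adgre1 was lowest in co-culture (1.09 to 1.35, 0.91 to 1.2 and 0.59 to 0.83), and Tyrobp and Fcer1g overlapped between groups. The part of such cells in the levels of Slc11a1 and Slc15a3 was not tested. Just outside, at exactly 2 libraries, were Slc26a1 (1.22, 0.89 and 1.23 in control, at most 0.76 elsewhere) and Slc16a9 (1.12, 1.15 and 0.95 in control, at most 0.85 elsewhere). The organic cation exporter Slc47a1 (MATE1) was under 1 FPKM in all control libraries (0.60, 0.51 and 0.93) and read 7.14, 8.38 and 7.39 with IL-1β and 3.97, 3.28 and 4.24 in co-culture.

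The 2 members whose profile over the 3 group means lay nearest to that of Slc2a1, by Euclidean distance of centred log2(FPKM + 1), were the coenzyme A carrier Slc25a42 (distance 0.0624) and Slc22a23, an orphan of the organic ion family (distance 0.0830). Slc22a23 read 1.59 ± 0.125 FPKM in control, 4.05 ± 0.180 with IL-1β and 2.68 ± 0.170 in co-culture. The likeness rests on 3 means and is a description.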

How the data were processed

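The authors deposited 1 table of FPKM values for 9 libraries, rounded to 2 decimals, per the file headers. The submitters' processing notes name GRCm38, a mouse build, for these rat samples, and neither they nor the labels name an aligner, counting tool or annotation. RNA was captured by poly(A) and reverse transcribed with random primers, per the labels' protocols, which do not state whether strand was kept. FPKM is relative, so a large rise in abundant genes lowers the others.

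Groups came from the sample titles. Genes of at least 1 FPKM in at least 3 of 9 libraries (11732) were fitted on log2(FPKM + 1), which understates changes of low genes, with limma 3.58.1 (R 4.3.3, mean-variance trend, two-sided, Benjamini-Hochberg adjustment within each of 3 comparisons). Folds are ratios of mean FPKM. The fit was run on simulated data with independent normal noise on that log2 scale. Such data cannot check counting error at low levels, scaling or dependence between libraries. Members, classes and lists were chosen with earlier results of these data known. Classes follow gene family names. Named members were 33 of 34 fixed genes, the 3 most abundant in each of 5 classes (sugars, amino acids, metals, anions, Slc25) and in the others pooled, those with a called log2 change of at least 1, up to 3 per such class and direction with the smallest p in the comparisons of IL-1β with control and of co-culture with IL-1β, those split by the filter, and the 2 nearest to Slc2a1 (68 in all, of which 2 are not reported here). The other members given with values were chosen after their values were seen. Figures used matplotlib 3.10.9. Tried alternatives were 3 rescalings, a pseudocount of 0.1, other filters, no trend, only the 6 libraries compared, a replicate block and leaving out each library.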

Additional observations from a re-analysis of the deposited data

How the results depend on the processing

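In co-culture against IL-1β, the count of members called higher was 18 and became 11 with only the 6 libraries compared, and 11 to 17 when single libraries were left out. The count called lower was 32 and became 21 among genes of mean FPKM of at least 5, where only 125 members were tested. The other counts over all members stayed within 1.5 times their reported value under all alternatives run, but counts of single classes, which are small, moved further, as given with each class. Among genes of mean FPKM of at least 5, fewer members were tested. Higher and lower calls with IL-1β were then 3 and 0 of 5 sugar carriers, 2 and 1 of 7 anion carriers and 1 and 2 for exchangers. For amino acids in co-culture against IL-1β they were 7 and 3 of 19. The shares of all tested genes given above do not belong to that filter. Exchangers had 2 and 4 with IL-1β with no trend, and metals 2 and 8 in co-culture against IL-1β with no filter. Without the 8 members that depend on 1 group for the filter, an alternative added after seeing the data, 53 were higher and 37 lower with IL-1β, and 18 and 30 in co-culture against IL-1β. The 68 named members and further members outside the naming rule gave 273 results over the 3 comparisons, of which 167 were calls. Of these calls, 135 kept direction and call under every alternative run for them. Among the 273 results, 2 values of co-culture against control changed sign with a call in at least 1 of the 2 fits. Changes of sign between values called in neither fit were not counted. After quantile normalization Slc15a3 was at -0.041 (0.32 without rescaling) and Slc25a3 at -0.076 (0.02 without rescaling, not called). The cause was not tested. The replicate numbers of the titles showed no sign of pairing the libraries: deviations of same-numbered libraries correlated at -0.0907 to 0.0855, and not every library correlated best with its own number. Such correlations cannot show whether libraries of 1 number shared an animal or a batch. With a replicate block 53 members were higher and 36 lower with IL-1β (89 in all), 13 and 29 in co-culture against IL-1β (42), and 42 and 26 in co-culture against control (68). Depth is unknown, so counting error at levels near 1 FPKM could not be given.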

Other observations

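Organic anion carriers of the Slco family, a solute carrier branch outside the name pattern, had 3 genes above the filter. The prostaglandin carrier Slco2a1 rose from 3.92 ± 0.300 to 5.69 ± 0.160 FPKM with IL-1β (adjusted p = 0.000142) and read 5.15 ± 0.0874 in co-culture. Slco4a1 read 0.537 ± 0.0681, 3.84 ± 0.226 and 3.04 ± 0.434 in control, IL-1β and co-culture, and Slco3a1 7.94 ± 0.986, 6.63 ± 0.103 and 5.29 ± 0.222.

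Of the 130 solute carrier genes below the rule, 8 reached 1 FPKM in at least 1 library and 52 stayed under 0.1 FPKM in every library. The anion exchanger Slc26a7 read 1.23, 0.85 and 0.95 FPKM in control, 0.27, 0.23 and 0.28 with IL-1β and 0.32, 0.45 and 0.21 in co-culture. The inositol carrier Slc5a3 read 1.00, 0.55 and 0.70, then 0.70, 0.45 and 0.51, then 0.65, 0.72 and 0.75.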
